A study of Mus musculus with 4 samples.

Results

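The genes described here are 10 genes of the canonical Wnt pathway: the feedback targets Dkk1, Axin2, Sp5, Nkd1, Rnf43 and Znrf3, and the TCF/LEF transcription factor genes Tcf7, Lef1, Tcf7l1 and Tcf7l2. They were chosen by symbol, and all 10 were found among the 23366 gene symbols of the read-count files. Of these, 9 had enough reads to be tested, as did 13199 genes in all, and Rnf43 did not. The RNA came from R1 mouse embryonic stem cells (strain background 129X1 x 129S1), kept on gelatin with serum, a serum replacement and the cytokine LIF. The 2 knockdown libraries were from cells transfected with a short hairpin RNA against Cyrano, a long noncoding RNA, and the 2 control libraries from cells that received a non-targeting hairpin in the same vector (pSicoR-Ef1a-mCh-Puro). The vector was delivered by lipofection, and cells that had taken it up were enriched with puromycin or by sorting. The sources used here do not give which of the methods served each library, the number of hairpins or the time of harvest. The series' design text calls the libraries biological replicates but does not say that they came from separate cultures, so the p-values cover only the spread between these libraries, which may be technical.

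In canonical Wnt signalling, a Wnt ligand bound to a Frizzled receptor and an LRP co-receptor stops the destruction complex, in which AXIN, APC and the kinase GSK3 mark beta-catenin for decay. Beta-catenin then joins TCF/LEF proteins on DNA, and among the genes it turns on are inhibitors of the pathway itself, which makes them common readouts of its activity. In mouse embryonic stem cells TCF7L1, formerly called TCF3, acts mainly as a repressor of pluripotency genes, and relief from it is a known route by which Wnt signals favour self-renewal.

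TCF/LEF proteins bind DNA at a short core motif. The stretch of 250 bases before the start was searched on both strands for the 4 spellings of that motif in RefSeq promoter sequences (build GRCm38.p6). These covered 9 of the 10 genes with 15 promoters, and Znrf3, which had no entry, was not searched. Of these 15 promoters, 4 held a match, 1 each for Sp5, Dkk1, Lef1 and Tcf7l2, beside 14.8% of 32851 promoters of the same length. The spelling CTTTGAT occurred in 3.21% of all promoters, the spelling CTTTGTT in 5.03%, the spelling CTTTGAA in 4.46% and the spelling CTTTGTA in 3.2%. The letters of CTTTGTT, or AACAAAG on the other strand, are also those that SOX proteins bind. In Lef1 and Tcf7l2 the match lay before an internal start and not before the first one. A match describes letters and is not evidence of binding.

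The sequences shown are those with more than 1 match, with the matches in capitals. That of Sp5 covers chr2:70474673-70474922 on the plus strand, and its matches begin 222 and 104 bases before the start. That of Dkk1 covers chr19:30549586-30549615 on the minus strand, from 119 to 90 bases before the RefSeq start, with 12 bases between its matches. The GENCODE model of Dkk1 begins further upstream and places this stretch inside the transcript.
Sp5: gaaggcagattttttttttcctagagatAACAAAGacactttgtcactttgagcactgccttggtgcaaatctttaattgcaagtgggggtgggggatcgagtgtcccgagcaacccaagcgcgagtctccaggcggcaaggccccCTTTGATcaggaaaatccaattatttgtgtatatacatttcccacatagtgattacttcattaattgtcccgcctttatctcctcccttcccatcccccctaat
Dkk1: agCTTTGAAatcccatcccggCTTTGTTgt

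Cyrano is known for pairing with the microRNA miR-7, so the 10 genes were also searched for miR-7 sites in the longest 3′ untranslated region of their GENCODE models. The mature miRNAs miR-7a-5p and miR-7b-5p share 1 seed (bases 2 to 8, in capitals), and its target letters are GTCTTCC, or TCTTCCA where bases 2 to 7 match and an A stands opposite base 1. Tcf7 and Nkd1 held 1 site each, of the second kind, and the other 8 genes none, beside 25.8% of 19741 genes with at least 1 site. The sites (capitals) begin at base 128 of 1512 in Tcf7 and at base 306 of 2732 in Nkd1, counted from the first base after the stop codon.
mmu-miR-7a-5p: uGGAAGACuagugauuuuguugu
mmu-miR-7b-5p: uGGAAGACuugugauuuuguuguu
Tcf7 site: tctgcagctctcacTCTTCCAgcccctaa
Nkd1 site: ccccccacttcagtTCTTCCAggagagca

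The counts over genes summed to 16854403 to 22321102 reads per library. Cyrano (1700020I14Rik in the files) had 24.8 and 15.1 CPM (the usual scaled count, on TMM library sizes) in the controls and 3.99 and 3.16 CPM after knockdown, as labelled. In edgeR's quasi-likelihood test the log2 fold change was -2.48 ± 0.30 (SE; Benjamini-Hochberg adjusted p = 0.0070). Without control library 1 the adjusted p was 0.12, and without control library 2 it was 0.057. The levels of pluripotency markers fitted the stem cell label: the 12 markers summed to 5376 and 5608 CPM in the controls and 5357 and 5078 CPM after knockdown. Pou5f1 lay between 930 and 1051 CPM in the 4 libraries. All 12 were tested, with 6 above and 6 below 0 (median log2 fold change -0.04), which describes change and not cell identity. The 8 neural markers, with Tubb3 the highest, summed to 209 and 239 CPM in the controls and 188 and 197 CPM after knockdown. Of 10 fibroblast markers, Col3a1, Postn, Dcn and Lum had no read in any library, while Vim, which stem cells also express, supplied most of the list's 569 to 640 CPM. Thy1 of that list was present, at 38.0 and 21.6 CPM in the controls and 48.0 and 20.4 CPM after knockdown. Col1a1 had 0.806 to 2.49 CPM, and Col1a2, Acta2 and S100a4 lay below it in each library. The share of counts on the ribosomal RNA gene Rn45s was 15.9% to 17.5% among controls and 11.03% to 12.3% among knockdown libraries. In bulk RNA, fewer cells that express a gene and less RNA per cell cannot be told apart.

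By level, the 10 genes ran from well above the middle of the tested genes to below all of them. To compare genes, CPM was divided by the length of the merged exons in kilobases. Tcf7 had the highest level per length, a mean of 14.7 CPM per kb over the 4 libraries (12.0 to 18.7), above that of 75.4% of tested genes, and Tcf7l1 came next at 10.1 (8.48 to 11.7). Dkk1 at 3.68 (1.96 to 5.80), Axin2 at 3.17 (2.29 to 4.02) and Znrf3 at 3.03 (2.69 to 3.34) overlapped in range over the 4 libraries. Within the groups the place of Dkk1 differed: in the controls it had 2.28 and 1.96 CPM per kb, below Axin2 (4.02 and 2.66) and Znrf3 (2.69 and 3.10) in both, and after knockdown 4.69 and 5.80, above Axin2 (3.72 and 2.29) and Znrf3 (3.34 and 2.99) in both. Axin2 and Znrf3 overlapped in each group. Tcf7l2 followed at 1.13 CPM per kb (1.06 to 1.23), Sp5 at 0.879 (0.686 to 1.00) and Nkd1 at 0.386 (0.214 to 0.616). The lowest were Lef1 at 0.172 (0.152 to 0.209) and Rnf43 at 0.020 (0 to 0.034). With the longest transcript as the length, Axin2 (4.10) and Znrf3 (3.79) came above the mean of Dkk1, and Nkd1 (0.431) and Lef1 (0.414) were nearly equal. The place of Dkk1 within the groups, given above by merged exons, also depends on the length used.

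No member passed the test over all genes, in which edgeR called 0.0833% of the 13199 tested genes (11, with 5 higher and 6 lower). DESeq2 called 1 member, Dkk1, and 1.38% of the 9872 genes to which it gave an adjusted p, which left out Sp5, Lef1 and Nkd1. By limma-voom no member passed, beside 0.0227% of genes. At an unadjusted p under 0.05 there were 2 of 9, Dkk1 (higher) and Tcf7 (lower), where 11.6% of all tested genes reached that level. The groups did not overlap in 3 of 9, Dkk1, Tcf7 and Tcf7l2, beside 43.5% of all tested genes. The median log2 fold change of the 9 was -0.12, with 3 above 0 and 6 below, and that of all tested genes was -0.0016. The log2 fold change of Dkk1 stood farthest from 0.

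**Figure D1:**
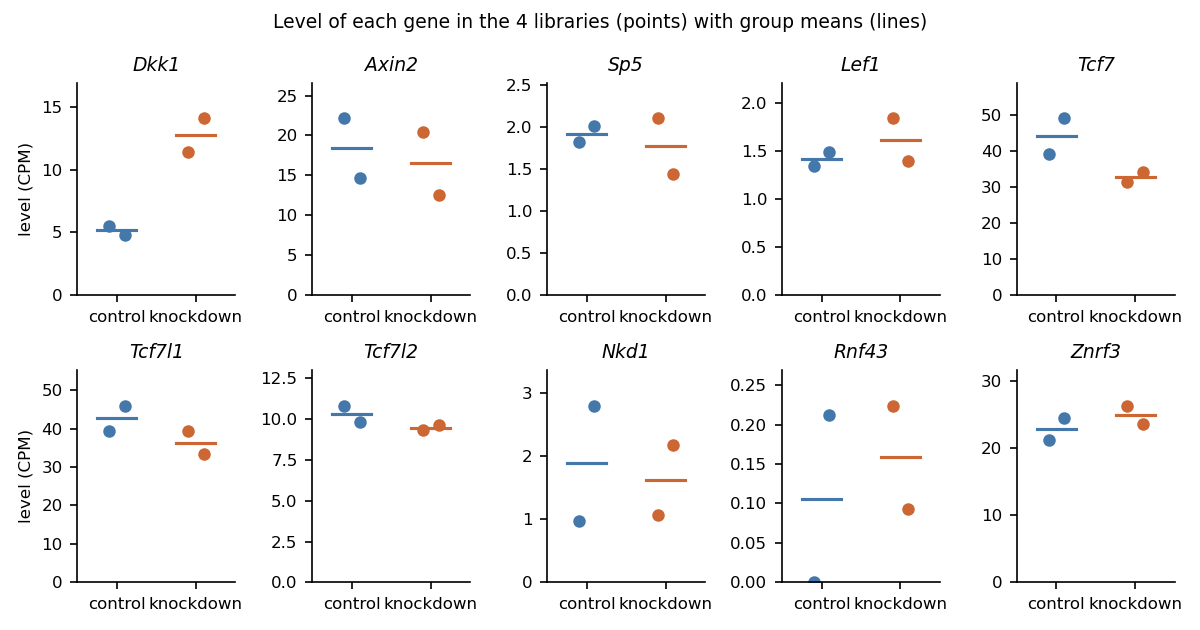
Level of the 10 genes in each library, in CPM on a linear axis from 0 with its own scale per gene; points are libraries and lines group means (n = 2 each). Dkk1 lay at 5.54 and 4.77 CPM in the controls and at 11.4 and 14.1 CPM after knockdown, while Axin2, Sp5, Lef1, Tcf7l1, Nkd1, Rnf43 and Znrf3 overlapped between groups.

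Dkk1 encodes a secreted inhibitor that binds the co-receptors LRP5 and LRP6. It had 91 and 90 reads in the controls against 254 and 303 after knockdown, which gave 5.54 and 4.77 CPM against 11.4 and 14.1 CPM. Both knockdown libraries lay above both controls, and the 2.47-fold gap between the group means exceeded the gap within each group (1.16-fold between the controls and 1.24-fold between the knockdown libraries). The means were 5.15 ± 0.544 CPM in the controls and 12.7 ± 1.91 CPM after knockdown (SD, n = 2 each). The log2 fold change was 1.31 ± 0.28 (SE; edgeR unadjusted p = 0.00041, adjusted p = 0.094), so Dkk1 was not called. By unadjusted p it ranked 57 among the 13199 tested genes, and 108 genes had a higher log2 fold change.

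The size of the Dkk1 difference changed little with the processing, whereas the call did not hold one way. Over 16 alternatives the log2 fold change ran from 1.15 to 1.44, and it was called in 5 of them. The settings that called Dkk1 were those that called most genes in all: 1.38% with DESeq2 (adjusted p of Dkk1 0.0098), 1.95% in edgeR with no filter on low counts (0.0026), 1.4% without knockdown library 1 (0.018), and 7.24% and 4.51% in the 2 fits with replicate number as a block. The other 11 called between 0 and 0.379% of genes. Without control library 1, control library 2 or knockdown library 2 the edgeR adjusted p of Dkk1 was 0.27, 0.20 and 0.27.

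**Figure D2:**
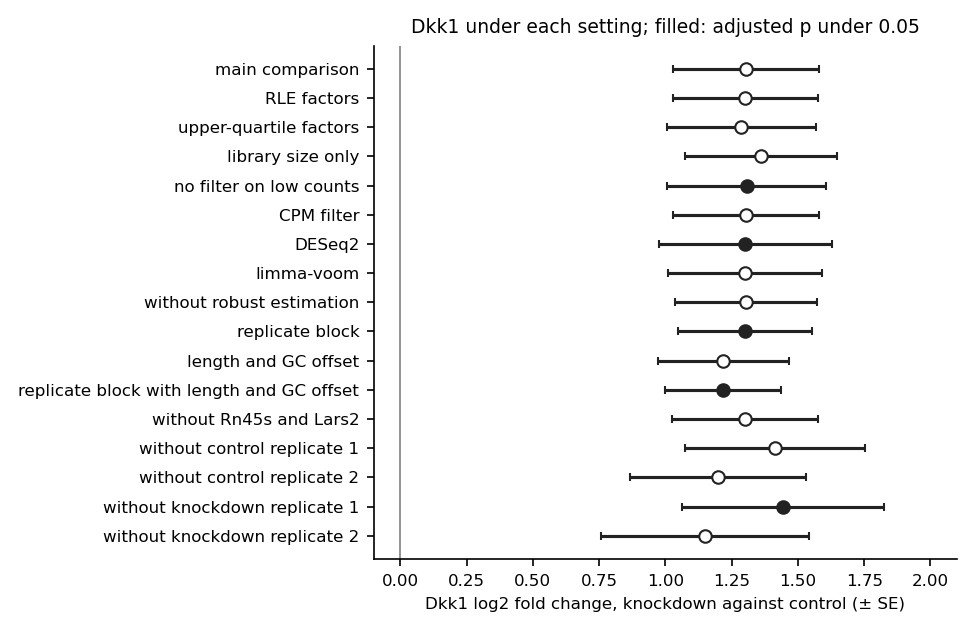
Log2 fold change of Dkk1 (knockdown against control, ± SE) in the main comparison and in 16 alternatives, 1 per line; filled points had an adjusted p under 0.05. The points lie between 1.15 and 1.44 in every setting, and 5 alternatives are filled.

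Markers of primitive endoderm, a cell type that stem cell cultures can hold and that lies beside the epiblast in the embryo, had a higher summed level in both knockdown libraries, as Dkk1 did. The 8 markers summed to 109 and 124 CPM in the controls and to 166 and 203 CPM after knockdown. All 8 were tested: 7 had a log2 fold change above 0 and 1, Hnf4a, below, and the median was 0.82. Gata6, a regulator of that lineage and the most abundant marker, went from 24.2 and 34.2 CPM to 40.5 and 60.7 CPM. Its log2 fold change was 0.79 ± 0.23 (edgeR adjusted p = 0.21), and edgeR called none of the 8. The part of such cells in the Dkk1 difference was not tested.

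The other secreted or membrane inhibitors in the pathway list did not move together. Of 20, 12 were tested, 6 with a log2 fold change above 0 and 6 below, with a median of -0.0038. By edgeR none was called, and DESeq2 called Tpbg. Within the DKK family, Dkk3 had 3.22 and 3.02 CPM in the controls and 1.88 and 1.81 CPM after knockdown (log2 fold change -0.75 ± 0.43, edgeR adjusted p = 0.52), opposite in sign to Dkk1. Dkk2 had 1 read in each control and none after knockdown, and Dkk4 had none in any library. Tpbg, which encodes a membrane glycoprotein known to inhibit Wnt signalling, was nearest to Dkk1, at 9.79 and 12.1 CPM in the controls and 20.4 and 22.8 CPM after knockdown (log2 fold change 0.98 ± 0.23, edgeR adjusted p = 0.13, DESeq2 adjusted p = 0.021). Sfrp4, a secreted Frizzled-related protein gene, lay higher after knockdown (0.79 ± 0.25, adjusted p = 0.24), and its relative Sfrp1 lower (-0.40 ± 0.19, 0.44). Notum, which encodes an enzyme that removes the lipid from Wnt ligands, had the highest level per length of the list, at 52.9 and 60.1 CPM in the controls and 51.3 and 52.1 CPM after knockdown.

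Axin2, the feedback scaffold of the destruction complex and the target most often read as Wnt activity, varied more within groups than between them. It had 22.1 and 14.7 CPM in the controls and 20.5 and 12.6 CPM after knockdown. Library 1 of each group was the higher one, by 1.51-fold in the controls and 1.63-fold after knockdown, and the group means differed by 1.11-fold. By edgeR the log2 fold change was -0.15 ± 0.28 (SE; adjusted p = 0.88), and it went from -0.55 without knockdown library 1 to 0.17 without control library 1 and 0.16 without knockdown library 2. The summed level of 10 markers of primitive streak and mesoderm, cells in which Wnt targets are known to be active, was also higher in library 1 of each group, at 43.7 and 23.2 CPM in the controls and 38.4 and 26.9 CPM after knockdown. Kdr, a receptor gene of vascular mesoderm, supplied most of that gap (22.1 and 7.10 CPM in the controls, 19.8 and 12.4 CPM after knockdown). Hand1 (5.23 and 2.12 CPM in the controls, 4.21 and 1.81 CPM after knockdown), Eomes, Evx1 and T were also higher in library 1 of each group. Mixl1, Mesp1, Gsc and Tbx6, all under 1 CPM, were higher in library 2 of each group, and Mesp2 went opposite ways in the groups. The part of such cells in the spread of Axin2 was not tested.

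Sp5 encodes a zinc finger factor that is a direct Wnt target and represses other targets. It was low, with 1.83 and 2.01 CPM in the controls and 2.11 and 1.44 CPM after knockdown, from 30 to 47 reads per library. The knockdown libraries enclosed both controls, and edgeR gave a log2 fold change of -0.11 ± 0.50 (SE; adjusted p = 0.96). Sp5 and Dkk1, which each held 2 core matches in the stretch printed above, thus had log2 fold changes of -0.11 and 1.31, a difference between genes that was not tested. At this depth a modest change in Sp5 was not detectable, since the exact Poisson 95% interval for its 30 reads in control library 1 was 20.2 to 42.8 reads. Such intervals cover counting error only.

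Nkd1 encodes a protein that binds Dishevelled and dampens the signal. It had 16 and 53 reads in the controls and 24 and 47 after knockdown, or 0.973 and 2.81 CPM against 1.08 and 2.18 CPM. The controls differed by 2.88-fold and enclosed both knockdown libraries, and the group means differed by 1.16-fold. The log2 fold change of -0.23 ± 0.61 (SE; edgeR adjusted p = 0.93) went down to -0.81 without knockdown library 2 and lay above 0 without control library 2 (0.74) and without knockdown library 1 (0.19). Its relative Nkd2 also differed more within groups than between them, at 2.19 and 4.45 CPM in the controls and 3.49 and 6.18 CPM after knockdown (0.53 ± 0.43, adjusted p = 0.67).

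Znrf3 and Rnf43 encode related membrane ubiquitin ligases that remove Frizzled receptors from the cell surface, and R-spondins block them. Znrf3 had 21.2 and 24.5 CPM in the controls and 26.3 and 23.6 CPM after knockdown, so the groups overlapped (log2 fold change 0.13 ± 0.20, edgeR adjusted p = 0.85). Rnf43 had 0 and 4 reads in the controls and 5 and 2 after knockdown. The 0 in control library 1 allows up to 0.183 CPM by the rule of 3 reads for a count of 0 (the upper end of the exact Poisson 95% interval is 0.224 CPM), so no difference could be read from Rnf43. Per length, Znrf3 (3.03 CPM per kb) supplied nearly all transcripts of this pair in each of the 4 libraries.

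**Figure D3:**
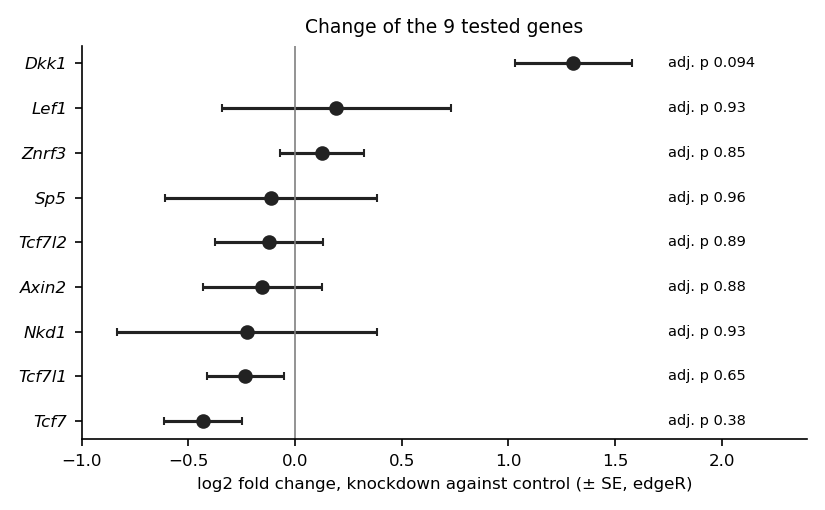
Log2 fold change of the 9 tested genes (knockdown against control, ± SE, edgeR) with the adjusted p at the right. Dkk1 stands at 1.31, and the other 8 lie between -0.43 (Tcf7) and 0.19 (Lef1).

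Among the TCF/LEF factors, which all bind the same core DNA site, Tcf7 stood lower after knockdown. Tcf7 encodes TCF1, which acts mostly as an activator with beta-catenin. It had 647 and 929 reads in the controls and 705 and 735 after knockdown, or 39.4 and 49.2 CPM against 31.6 and 34.1 CPM. The groups did not overlap, and the 1.35-fold gap between the means was little larger than the 1.25-fold gap between the controls. The log2 fold change was -0.43 ± 0.18 (SE; edgeR unadjusted p = 0.034, adjusted p = 0.38), so Tcf7 was not called. It stayed below 0 in each of 16 alternatives, from -0.58 to -0.26, and was called in none.

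Tcf7l1, the repressor of the family, had 39.4 and 46.0 CPM in the controls and 39.4 and 33.3 CPM after knockdown. The groups touched, since control library 1 and knockdown library 1 were level, and edgeR gave a log2 fold change of -0.23 ± 0.18 (SE; adjusted p = 0.65). An antisense gene, Gm15401, overlaps its exons in the GENCODE annotation and had 7 and 3 reads in the controls and 28 and 19 after knockdown. The sources used here do not say whether strand was used in counting, so reads of Tcf7l1 and Gm15401 cannot be told apart with certainty, though the antisense counts are few beside the 647 to 879 reads of Tcf7l1. Tcf7l2, which encodes TCF4, had 10.8 and 9.80 CPM in the controls and 9.32 and 9.62 CPM after knockdown. Both knockdown libraries were the lower, but the means differed by 1.09-fold and the controls by 1.11-fold (log2 fold change -0.12 ± 0.25, adjusted p = 0.89). Lef1, an activator that rises as stem cells leave the naive state, had 22 and 28 reads in the controls and 41 and 30 after knockdown. These gave 1.34 and 1.48 CPM against 1.84 and 1.39 CPM, groups that overlapped (0.19 ± 0.54, adjusted p = 0.93).

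Tcf7 and Tcf7l1 together made up nearly all TCF/LEF transcripts per length in every library. In the summed level per length, the share of Tcf7 was 56.8% and 59.0% in control cells, against 51.6% and 57.2% in knockdown cells. That of Tcf7l1 was 38.0% and 36.9% in control cells, against 43.0% and 37.3% in knockdown cells. Tcf7l2 held 3.52% to 4.82% and Lef1 0.532% to 0.896% of the sum over the 4 libraries. With the longest transcript as the length these shares were 6.93% to 9.34% for Tcf7l2 and 1.07% to 1.7% for Lef1, and in knockdown library 1 Tcf7l1 (45.0%) came just above Tcf7 (44.5%). The sum itself came to 26.4 and 31.7 CPM per kb in the controls, against 23.3 and 22.7 after knockdown, so both knockdown libraries lay below both controls, with Tcf7 the largest part of the gap. The shares of Tcf7 overlapped between groups, averaging 57.9% ± 1.61 (SD, n = 2) in control cells and 54.4% ± 4.0 (SD, n = 2) in knockdown cells.

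**Figure D4:**
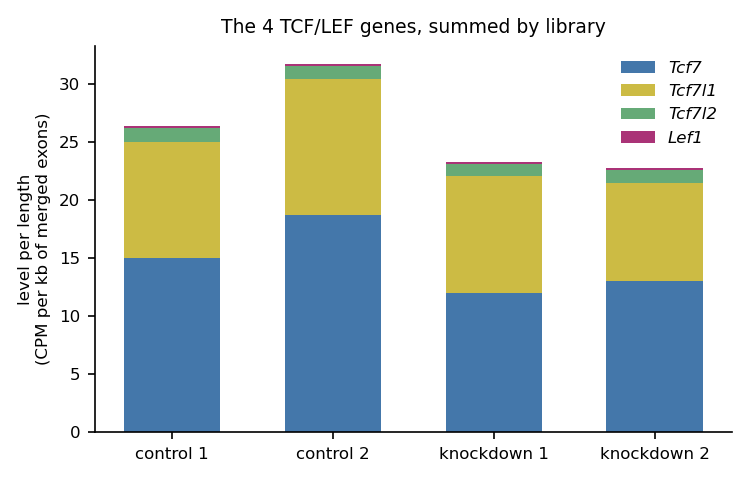
Summed level per length of Tcf7, Tcf7l1, Tcf7l2 and Lef1 in each library, in CPM per kb of merged exons, stacked by gene. The control bars reach 26.4 and 31.7, the knockdown bars 23.3 and 22.7, and Tcf7 and Tcf7l1 fill nearly all of each.

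Genes that TCF7L1 is known to repress in stem cells, a list that also counts as naive pluripotency genes, were mostly lower after knockdown without passing the test. Of 9 tested, 7 had a log2 fold change below 0, 5 had an unadjusted p under 0.05, all of them lower (where 5.43% of all tested genes were lower at that level), and the median was -0.35. None was called by edgeR over all genes or by limma-voom, and DESeq2 called 2. Nanog had 216 and 228 CPM in the controls and 129 and 133 CPM after knockdown (log2 fold change -0.76 ± 0.14, edgeR adjusted p = 0.070). Tfcp2l1 had 495 and 334 against 269 and 203 CPM (-0.81 ± 0.20, adjusted p = 0.17). Nr5a2 (-0.52 ± 0.15), Esrrb (-0.35 ± 0.15) and Klf2 (-0.38 ± 0.17) had both knockdown libraries below both controls as well. The mRNA of Tcf7l1 itself was not higher after knockdown, as given above, but mRNA does not show the amount or the activity of the protein. The part of TCF7L1 in the lower levels of its listed targets was not tested. The 12 general pluripotency markers did not lie to 1 side: the 4 with an unadjusted p under 0.05 were Nanog and Esrrb, lower, and Dppa5a (0.40 ± 0.16, edgeR adjusted p = 0.35) and Dppa4 (0.36 ± 0.16, 0.39), higher. The pluripotency genes were among the results known when this list was chosen.

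Other known Wnt targets were more often higher than lower after knockdown, and edgeR called none. Of 23, 17 were tested, 11 above 0 and 6 below, with a median of 0.41. At an unadjusted p under 0.05, 3 were higher and none lower, where 6.18% of all tested genes were higher at that level. Jag1, which encodes a Notch ligand, had 11.6 and 10.6 CPM in the controls and 19.1 and 17.9 CPM after knockdown (log2 fold change 0.74 ± 0.22, edgeR adjusted p = 0.22). Sp8, a relative of Sp5, had 3 and 4 reads in the controls and 21 and 27 after knockdown (2.43 ± 0.83, adjusted p = 0.28). Cdx1, a caudal-type homeobox gene, had 10.5 and 12.6 against 19.2 and 15.4 CPM (0.58 ± 0.24, adjusted p = 0.36). The targets with the highest levels per length differed little: Sall4 had a log2 fold change of -0.08 ± 0.14, and Myc of 0.06 ± 0.20. Lgr5, a gut stem cell marker and a strong Wnt target there, had 0 and 3 reads in the controls and 4 and 0 after knockdown.

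Upstream of these genes, mRNA of beta-catenin and of Frizzled receptors was present in both groups, which does not show that the pathway was active. Ctnnb1, the beta-catenin gene, had 636 and 641 CPM in the controls and 631 and 659 CPM after knockdown (log2 fold change 0.02 ± 0.14, edgeR adjusted p = 0.98). Fzd5, the Frizzled gene with the highest level per length, had 284 and 285 against 323 and 265 CPM (0.04 ± 0.15). Of 15 receptor genes 14 were tested, 10 above 0 and 4 below (median 0.11), and Lrp6, the co-receptor that DKK1 binds, was the 1 gene of these with an unadjusted p under 0.05. Lrp6 had 98.2 and 71.0 CPM in the controls and 69.5 and 52.3 CPM after knockdown (-0.47 ± 0.19, adjusted p = 0.36), and its relative Lrp5 had -0.24 ± 0.16. Among the 11 tested of 19 ligand genes, 4 lay above 0 and 7 below (median -0.07), and none had an unadjusted p under 0.05. Wnt6, the ligand gene with the highest level, had 11.2 and 7.89 against 18.7 and 10.8 CPM, so the groups overlapped (0.63 ± 0.30, adjusted p = 0.45).

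The 4 genes for ligand secretion had a median of -0.13, with 1 above 0. Wls of that list was low, at 2.01 and 2.12 CPM in the controls and 0.985 and 1.53 CPM after knockdown (-0.71 ± 0.53, edgeR adjusted p = 0.64). Lgr4, a receptor for R-spondins, was the most abundant of the 3 tested R-spondin and LGR genes, at 80.4 and 59.0 against 94.0 and 78.2 CPM (0.31 ± 0.18, edgeR adjusted p = 0.53). Its relative Lgr6 was low and lay lower after knockdown (-1.04 ± 0.47, adjusted p = 0.42). All 24 genes of the destruction complex and the relay from the receptor were tested, 6 above 0 and 18 below (median -0.13). At an unadjusted p under 0.05, 1 of these was higher and 2 were lower. Dvl1, a Dishevelled gene, lay higher (0.42 ± 0.19, adjusted p = 0.42) and Dact2, which encodes a Dishevelled-binding protein, lower (-0.52 ± 0.19, adjusted p = 0.32). Apc2 also lay lower (-2.52 ± 1.11, adjusted p = 0.40), on only 9 and 20 reads in the controls and 6 and 0 after knockdown. All 17 nuclear cofactors were tested, 6 above 0 and 11 below (median -0.16). Bcl9, a beta-catenin coactivator gene (-0.48 ± 0.17, adjusted p = 0.30), and Tle3, a corepressor gene that partners TCF factors (-0.42 ± 0.15, adjusted p = 0.32), both lay lower. Over the 108 tested genes of all pathway lists together, 6 were higher and 11 lower at an unadjusted p under 0.05, beside 6.18% and 5.43% of all tested genes. Of the 11 lower, 5 came from the list of TCF7L1-repressed genes, which was chosen with results for pluripotency genes known. After adjustment over all genes neither edgeR nor limma-voom called any of the 108.

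**Figure D5:**
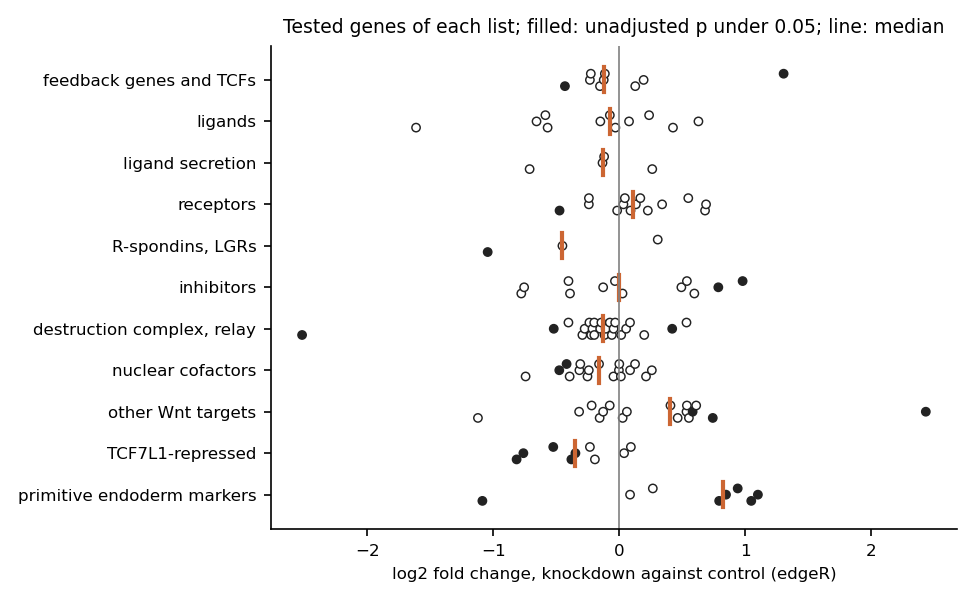
Log2 fold change (knockdown against control, edgeR) of each tested gene, 1 line per list; filled points had an unadjusted p under 0.05, and the coloured line is the list's median. The median is -0.12 for the feedback genes and TCF factors, 0.41 for other Wnt targets, -0.35 for TCF7L1-repressed genes and 0.82 for primitive endoderm markers.

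Fold changes over all genes followed transcript length, and lengths differed among the members. With tested genes in 5 equal groups by the longest transcript, the median log2 fold change was 0.12 for the shortest and -0.14 for the longest. Dkk1, Sp5 and Tcf7 were in the second group (median 0.05) and Znrf3 in the longest. With an offset for length and GC content, Dkk1 was at 1.22 ± 0.25 on the log2 scale (edgeR adjusted p = 0.094), Tcf7 at -0.41 ± 0.15 (0.33) and Znrf3 at 0.28 ± 0.18 (0.56).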

How the data were processed

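Polyadenylated RNA was sequenced by a strand-specific dUTP method in 2 control and 2 knockdown libraries, grouped by sample titles. The authors deposited 1 file of raw counts (reads per gene symbol) for each library. TopHat, HTSeq, SAMtools, bedtools and build mm9 are named in the submitters' processing notes. The sources used here give no versions, annotation or strand setting. Tallies that name no gene, 33.1% to 40.8% of each file's reads, were left out.

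The test was edgeR 4.0.16 (R 4.3.3): filterByExpr (minimum count 10), TMM factors (0.976 to 1.037), robust glmQLFit and glmQLFTest with group as the only term, two-sided, with Benjamini-Hochberg adjustment over all tested genes and a threshold of 0.05. SE was derived as |log2 fold change| divided by the root of F. With 2 libraries against 2 an exact permutation test cannot go below p = 0.333. DESeq2 1.42.0 and limma-voom (limma 3.58.1), other scalings and filters, an offset for length and GC content and left-out libraries were alternatives. Replicates differed beyond sampling noise (chi-square over degrees of freedom 25.4 between controls and 20.5 between knockdown libraries).

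Lengths and 3′ ends came from GENCODE M21, with gene models matched by symbol for all but 362 of 23366 symbols and for all 10 members. Promoters came from RefSeq (GRCm38), with none for Znrf3. The members and lists were chosen with earlier results of these data known. Besides members, named genes were the 3 lowest p values and 2 highest levels per length of each pathway list, not all of them printed. Dkk2 to Dkk4, Nkd2, Lgr5, Gm15401, Rn45s and the markers were named after their values were seen.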

Additional observations from a re-analysis of the deposited data

How the results depend on the processing

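All alternatives were planned. Each one in edgeR changed 1 choice except the replicate block with the length and GC offset. DESeq2 and limma-voom each changed more than 1 choice, since the model and the test differ between tools. The log2 fold changes of Dkk1, Tcf7, Tcf7l1, Tcf7l2 and Znrf3 kept their direction in each of 16 alternatives. With single libraries left out, those of Axin2 (-0.55 to 0.17), Sp5 (-0.42 to 0.14), Lef1 (-0.025 to 0.38) and Nkd1 (-0.81 to 0.74) crossed 0, and in the other 12 alternatives they did not.

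Members called higher numbered 1 (Dkk1) with no filter on low counts, with DESeq2, with the replicate block and with the replicate block and offset, 0 to 1 over left-out libraries, and 0 otherwise. No member was called lower. Other genes of the pathway lists were called as 1 higher and 2 lower with no filter and with DESeq2, and as 0 to 0 higher and 0 to 2 lower over left-out libraries. With upper-quartile factors, library size only, and the offset, 1 was lower (Nanog).

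Over the whole table, genes called higher numbered 2 under RLE factors and 2 under the CPM filter. Non-robust estimation called 1 higher and 3 lower, limma-voom 1 and 2, DESeq2 72 and 64, no filter on low counts 174 and 158, upper-quartile factors 10 and 16, and plain library size 32 and 18. Over left-out libraries they ran from 0 to 60 higher and from 0 to 131 lower: leaving out control library 1 gave 0 and 1, control library 2 gave 0 and 0, knockdown library 1 gave 60 and 131, and knockdown library 2 gave 32 and 17.

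For Cyrano limma-voom gave -2.42 (adjusted p = 0.051, not called), and over left-out libraries it ran from -2.79 to -2.08.

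Replicate numbers pair nothing by the labels. Same-numbered deviations correlated at 0.24 across genes, with 2 pairs. With the replicate block 504 genes were higher and 451 lower, and 3 and 7 of the pathway lists; Dkk1 had 1.30 (adjusted p = 3.8e-05) and Tcf7 -0.42 (0.094). With the replicate block and the offset the counts were 338 and 257, and 5 and 4 of the pathway lists; Dkk1 had 1.22 (0.011).

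With the longest transcript as length, control and knockdown shares were 50.9% and 47.2% for Tcf7, 40.0% and 42.2% for Tcf7l1, 8.0% and 9.03% for Tcf7l2, and 1.10% and 1.56% for Lef1. Depth limits Sp5, Lef1, Nkd1 and Rnf43. The cause of these changes in calls was not tested.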
